A study of Homo sapiens with 5 samples.

Results

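Transcripts of the core glycolytic enzymes were followed in the human colorectal cancer line HCT116 after knockdown of the transcription factors SP1 and SP3. The genes were chosen by symbol, with no rule on their values but with earlier results of these data known. They were GPI, ALDOA, TPI1, GAPDH, PGK1, PGAM1, ENO1, ENO2, PKM and LDHA, which are 10 of the 20030 symbols listed. All 10 passed the filter of at least 1 FPKM (fragments counted per kilobase, relative to the size of the library) in at least 1 library. The samples were 2 libraries labelled control, 1 library with SP1 knocked down, 1 with SP3 knocked down and 1 with both knocked down, the knockdowns made with siRNAs, short RNAs that lower the transcript they match. The sources used here do not give what the control cells received, the siRNA sequences and doses, or the duration of treatment. The study asked which genes differ in expression when SP1 or SP3 is lowered.

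Glycolysis turns glucose into pyruvate in the cytosol. After glucose has been trapped and phosphorylated, GPI isomerises the sugar phosphate, ALDOA splits it into a pair of triose phosphates, and TPI1 interconverts these. GAPDH then oxidises the triose, PGK1 and PKM make ATP, PGAM1 moves a phosphate group, and the enolases ENO1 and ENO2 remove water, while LDHA reduces pyruvate to lactate and restores the NAD+ that GAPDH needs. Many tumour cells run this pathway at a high rate even with oxygen present. ENO2 is the enolase typical of neurons, and PKM encodes both the M1 and the M2 form of pyruvate kinase. SP1 and SP3 are zinc finger proteins of one family that bind GC boxes in promoters, and GAPDH is widely used as a reference gene for normalising transcript measurements.

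The libraries held between 14678068 and 15970519 counted reads, and 10654 to 11232 genes reached 1 FPKM in each. Between the controls the median log2 difference was -0.03 over the 11728 genes tested, with an SD of 0.133, and the 10 enzymes differed by -0.10 (ENO2) to 0.09 (GPI). SP1 stood at 36.6 and 37.2 FPKM in the controls, 15.8 with the SP1 siRNA, 27.5 with the SP3 siRNA and 16.1 with both. SP3 stood at 13.3 and 13.0 FPKM in the controls, 14.3 with the SP1 siRNA, 5.42 with the SP3 siRNA and 6.67 with both. Each target was thus lowest in the libraries labelled with its knockdown, and SP1 was also lower with the SP3 siRNA alone (log2 difference -0.41, limma adjusted p = 0.000165), a call lost in a model with additive siRNA effects (-0.23, limma adjusted p = 0.284). All 7 epithelial markers (EPCAM, keratins, claudins, CDH1) reached 1 FPKM, with summed levels of 4742 and 4744 FPKM in the controls and 3922 to 4576 with the knockdowns. Single markers moved within that sum: 2 rose and 3 fell with each single siRNA, and 3 rose and 3 fell with both. Over all genes tested, limma called 65.4%, 61.6% and 63.0% for the SP1, SP3 and double knockdown. KRT18 was at 54.8%, 38.1% and 20.6% of control in the SP1, SP3 and double knockdown, and CLDN4 at 35.2%, 35.8% and 28.9%. The 4 endothelial markers summed to 0.439 FPKM at most. The 6 leukocyte markers summed to 74.7 and 77.8 FPKM in the controls and 56.6 to 94.2 with the knockdowns, of which CD68 made up 58.7 and 61.9 FPKM in the controls and 56.2 to 94.1 with the knockdowns. LYZ among them went from 11.1 and 12.2 FPKM in the controls to 0.258 at most with the knockdowns, and TYROBP from 2.05 and 1.49 FPKM to 0 in each of the 3. The part of these markers in the results below was not tested. Because the RNA came from whole cultures, fewer cells of a type and less RNA per cell cannot be told apart.

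The promoters of the enzymes were read for the GC box, the sequence GGGCGG on either strand, because it is the site that SP1 and SP3 are known to bind. RefSeq (GRCh38.p14) gave 14 windows for the 10 genes, each of 300 bases from 250 before to 50 after an annotated start. GGGCGG was present in 10 of the 14 windows and in at least 1 window of 9 of the 10 genes. The same letters were found in 44.95% of all 35116 windows and in 67.7% of the 13524 windows of tested genes that had one. Both are shares of windows, to be set beside the 10 of 14. No share of genes was counted, and ALDOA, LDHA and TPI1 had more than 1 window each. Shown here are 2 genes that fell with each knockdown (PGK1 and TPI1), 1 that rose with the SP3 siRNA and with both siRNAs (PKM), and the 1 gene without a match (GPI). They are written 5′ to 3′ on the gene's strand, with GGGCGG or its reverse complement CCGCCC in capitals.
PGK1, chrX:78103998-78104297, plus strand: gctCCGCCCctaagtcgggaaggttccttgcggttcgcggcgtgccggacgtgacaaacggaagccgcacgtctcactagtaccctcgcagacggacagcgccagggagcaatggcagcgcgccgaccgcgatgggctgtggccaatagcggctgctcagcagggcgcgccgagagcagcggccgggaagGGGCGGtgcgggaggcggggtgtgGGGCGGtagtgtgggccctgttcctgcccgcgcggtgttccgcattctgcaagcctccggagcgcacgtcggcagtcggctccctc
TPI1, chr12:6867281-6867580, plus strand: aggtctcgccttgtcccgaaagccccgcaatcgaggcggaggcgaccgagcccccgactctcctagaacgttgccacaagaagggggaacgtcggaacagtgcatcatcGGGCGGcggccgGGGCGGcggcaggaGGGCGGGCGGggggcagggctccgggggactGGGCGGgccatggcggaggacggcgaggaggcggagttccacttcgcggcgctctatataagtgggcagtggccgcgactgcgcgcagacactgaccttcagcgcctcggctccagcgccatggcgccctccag
PKM, chr15:72231141-72231440, minus strand: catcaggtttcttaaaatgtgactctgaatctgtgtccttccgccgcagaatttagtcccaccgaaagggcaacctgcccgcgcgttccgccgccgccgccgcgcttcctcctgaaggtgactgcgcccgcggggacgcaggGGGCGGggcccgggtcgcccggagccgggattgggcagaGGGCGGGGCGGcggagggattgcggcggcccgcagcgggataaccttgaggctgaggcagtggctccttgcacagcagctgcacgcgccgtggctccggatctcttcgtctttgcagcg
GPI, chr19:34364742-34365041, plus strand: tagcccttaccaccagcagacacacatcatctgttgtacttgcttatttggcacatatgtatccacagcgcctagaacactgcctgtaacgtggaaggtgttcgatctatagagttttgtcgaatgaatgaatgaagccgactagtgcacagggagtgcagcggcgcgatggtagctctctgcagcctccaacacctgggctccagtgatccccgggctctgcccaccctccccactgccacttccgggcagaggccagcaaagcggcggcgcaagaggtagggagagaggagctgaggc
The PGK1 window held 3 matches, the first TPI1 window 5 including a pair that overlaps, and the PKM window 3 including a pair that overlaps. Matches were therefore present both in genes that fell and in a gene that rose. The PKM window was also the only one of the 14 with the longer GGGGCGGGG, which 26.6% of the windows of tested genes held. ENO2 had 2 matches, GAPDH 2, ENO1 1, PGAM1 1 and LDHA 4 in the second of its windows, while the third ALDOA window had 5. The E-box CACGTG, a site of the MYC family, was found in 3 of the 14 windows (LDHA, GAPDH and ALDOA), against 9.42% of the windows of tested genes. The TATA letters TATAAA were found in 0 of the 14, against 5.81% of the windows of tested genes. The letters ACGTG, which CACGTG contains, were found in 9 of the 14 windows, against 25.5% of the windows of tested genes. GCGTG was found in 6 of the 14, against 48.8%. Only these exact letters were searched, so the tatataag printed in the TPI1 window was not counted. The windows of GAPDH, PGAM1, GPI and PKM were set on starts 747, 1627, 5274 and 401 bases inside the annotated gene. So were both TPI1 windows (111 and 685 bases), the later of LDHA (1788) and the later 2 of ALDOA (218 and 1481), which include the only windows of LDHA and ALDOA with a match. Any of these may not be the promoter used in these cells. A match is a description of letters, and none of these windows was measured for binding.

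GAPDH was by far the most abundant of the 10 transcripts, at 9741 ± 25.7 FPKM (SD, n = 2) in the controls. ALDOA followed at 1723 ± 73.3, ENO1 at 1529 ± 6.47 and LDHA at 1522 ± 43.2 FPKM (SD, n = 2 each). ENO1 and LDHA did not differ beyond the spread of the controls and changed places between them, as did GPI (218 ± 9.69) and PGAM1 (213 ± 6.29). PKM stood at 977 ± 27.97, PGK1 at 729.6 ± 7.15, TPI1 at 562 ± 0.612 and ENO2, the lowest, at 172 ± 8.38 FPKM (SD, n = 2 each). The 10 genes together held 4.18% and 4.25% of the counted reads in the controls, 3.44% with the SP1 siRNA, 2.78% with the SP3 siRNA and 3.27% with both. GAPDH ranked first among all genes in the controls and with the SP1 siRNA, and 5th in both libraries with the SP3 siRNA. The order of the enzymes depended in part on the transcript length used: with principal transcript lengths from GENCODE 29 in place of those the deposited values imply, PGK1 moved from place 6 to 8, TPI1 from 7 to 6 and GPI from 8 to 7. GENCODE 29 names 62 pseudogenes of GAPDH, 13 of PGAM1 and 6 of LDHA, and 0 for GPI and ENO2. The sources used here do not say how reads shared with such copies were counted. On the annotated genome GAPDH, ENO1 and ALDOA each overlap an antisense gene and TPI1 overlaps SPSB2 on the other strand, while ALDOA, GPI and PGK1 overlap genes on their own strand (AC093512.2, AC092073.1 and ATP7A among them). The same sources do not say whether strand was kept.

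**Figure D1:**
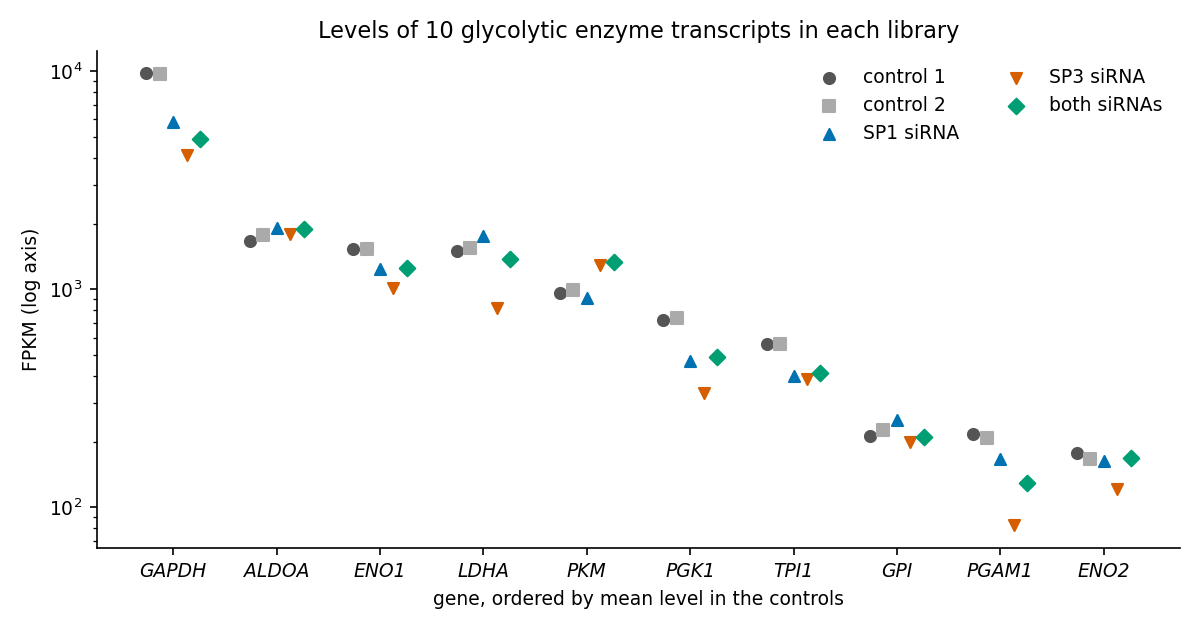
FPKM of the 10 enzymes (log axis) in each of the 5 libraries, with genes ordered by their mean in the 2 controls. The knockdown points of GAPDH, PGK1, TPI1, PGAM1 and ENO1 all lie below both controls, while those of PKM lie above both controls with the SP3 siRNA and with both siRNAs.

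With the SP1 siRNA, 5 of the 10 enzymes fell (TPI1, GAPDH, PGK1, PGAM1 and ENO1), 3 rose (GPI, ALDOA and LDHA), and ENO2 and PKM did not pass the test. Among all genes tested, limma called 65.4%, with 36.5% higher and 28.8% lower. The median log2 difference was -0.20 over the enzymes and 0.06 over all genes tested. The fall was steepest at GAPDH and its neighbour PGK1, in the middle of the pathway, and the 3 that rose act before TPI1 or after PKM. By size alone, GAPDH and PGK1 were at least 1.5-fold below each control, 2 of the 10 enzymes, against 14.8% of the 7127 genes whose mean reached 5 FPKM. None of the 10 was at least 1.5-fold higher, against 14.1% of those genes, and between the controls themselves 0.14% lay that far down and 0.0561% that far up. At 2-fold the enzymes counted 0 lower and 0 higher, against 5.89% and 4.67% of those genes.

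GAPDH, which couples the oxidation of the triose to the making of NADH, was measured at 9759 and 9722 FPKM in the controls, 5809.6 with the SP1 siRNA, 4123 with the SP3 siRNA and 4906 with both. All 3 knockdown libraries lay far below the controls, and the SP3 siRNA library was the lowest. The level with the SP1 siRNA was 59.6% of the control mean, with a 95% exact interval of 59.3 to 60.0% that covers counting error only. The log2 difference was -0.75 ± 0.05 (SE; limma adjusted p = 9.75e-09).

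PGK1, the kinase that makes the first ATP of the pathway, was measured at 725 and 735 FPKM in the controls, 467 with the SP1 siRNA, 336 with the SP3 siRNA and 487 with both. The knockdown libraries again lay below both controls, and its log2 difference with the SP1 siRNA was -0.64 ± 0.05 (SE; limma adjusted p = 5.62e-08). TPI1, the triose phosphate isomerase, was measured at 562 FPKM in both controls, 400.5 with the SP1 siRNA, 389 with the SP3 siRNA and 413 with both. Its 3 knockdown levels were close to each other, at 71.3%, 69.2% and 73.5% of the control mean. GAPDH and PGK1 kept nearly the same ratio in the controls and with either single siRNA, 13.5 and 13.2 against 12.5 and 12.3, while with both it was 10.1.

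The rises with the SP1 siRNA were small. GPI was measured at 211 and 225 FPKM in the controls, 252 with the SP1 siRNA, 199.7 with the SP3 siRNA and 209.6 with both. ALDOA, the main aldolase, was measured at 1671 and 1775 FPKM in the controls, 1909.6 with the SP1 siRNA, 1790.05 with the SP3 siRNA and 1887 with both. Each was above both controls with the SP1 siRNA, GPI by a log2 of 0.21 (limma adjusted p = 0.00594) and ALDOA by 0.15 (limma adjusted p = 0.0273), but GPI was below both controls with the other 2 treatments. After median-ratio scaling, which lowered the median of all genes from 0.06 to -0.04, the 3 rises were 0.09 (GPI), 0.03 (ALDOA) and 0.08 (LDHA) and none of them passed the test. That scaling also turned the split over all genes from 4283 higher and 3383 lower to 3487 higher and 4206 lower, and ENO2 (-0.19) then passed the test as lower.

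With the SP3 siRNA, 7 of the 10 enzymes fell, every one from TPI1 to ENO2 in the pathway together with LDHA, PKM rose, and GPI (-0.13) and ALDOA (0.06) did not pass the test. Over all genes limma called 61.6%, with 29.6% higher and 32.1% lower. The median log2 difference was -0.56 over the enzymes and -0.02 over all genes tested. By size alone, 5 of the 10 (GAPDH, PGK1, PGAM1, LDHA and ENO1) were at least 1.5-fold below each control, against 12.9% of the genes whose mean reached 5 FPKM. GAPDH, PGK1 and PGAM1 were at least 2-fold below, 3 of the 10 against 5.18%. None was at least 1.5-fold above the controls, against 13.6%, or 2-fold above, against 4.14%.

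PGAM1, the mutase that prepares the substrate of the enolases, was measured at 217 and 208 FPKM in the controls, 166 with the SP1 siRNA, 82.8 with the SP3 siRNA and 129 with both. It was the lowest in relative terms of the 10 enzymes in the SP3 siRNA library, at 38.9% of the control mean (95% exact interval 37.4 to 40.6%), and its SP1 siRNA level lay between the controls and the other knockdowns. The log2 difference was -1.35 ± 0.06 with the SP3 siRNA (SE; limma adjusted p = 7.19e-11) and -0.35 ± 0.06 with the SP1 siRNA (SE; limma adjusted p = 8.37e-05). GAPDH was at 42.3% (42.1 to 42.6%) and PGK1 at 46.1% of control with the SP3 siRNA, log2 differences of -1.24 (limma adjusted p = 5.63e-11) and -1.12 (limma adjusted p = 1.94e-10).

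LDHA moved in opposite directions with the single siRNAs. It was measured at 1491 and 1552 FPKM in the controls, 1752.5 with the SP1 siRNA, 817 with the SP3 siRNA and 1377 with both. The SP1 siRNA level was above both controls by a log2 of 0.20 (limma adjusted p = 0.00351), and the SP3 siRNA level was below them by -0.90 (limma adjusted p = 2.17e-09). The rise was no longer called with median-ratio scaling (0.08), without a filter, without the trend or in the additive model (0.44). The additive model kept the fall (-0.66). LDHB, the other main lactate dehydrogenase subunit, was measured at 538 and 558 FPKM in the controls, 542 with the SP1 siRNA, 427 with the SP3 siRNA and 509.8 with both. The ratio of LDHA to LDHB was therefore 2.77 and 2.78 in the controls, 3.23 with the SP1 siRNA, 1.91 with the SP3 siRNA and 2.70 with both.

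Both enolases fell with the SP3 siRNA. ENO1, the widely expressed enolase, was measured at 1534 and 1525 FPKM in the controls, 1242 with the SP1 siRNA, 1009 with the SP3 siRNA and 1247 with both. ENO2 was measured at 178 and 166 FPKM in the controls, 164 with the SP1 siRNA, 122 with the SP3 siRNA and 168 with both. ENO1 was below both controls in every knockdown library, whereas ENO2 was well below them only in the SP3 siRNA library. Their log2 differences with the SP3 siRNA were -0.60 for ENO1 (limma adjusted p = 1.14e-07) and -0.49 for ENO2 (limma adjusted p = 4.79e-06), and ENO2 made up 9.81 to 11.9% of the summed enolase FPKM in all 5 libraries. ENO2 is used as a marker of neuronal and neuroendocrine cells, and the 6 other such markers listed were mixed. TUBB3 was measured at 43.4 and 42.8 FPKM in the controls and 74.8 with the SP3 siRNA, SYP at 0.917 and 0.827 and 5.17 FPKM, and CHGA at 0 in all 5 libraries. NCAM1, below the filter and so not tested, was measured at 0.763 and 0.856 FPKM in the controls, 0.932 with the SP1 siRNA, 0.242 with the SP3 siRNA and 0.320 with both. TUBB3 and SYP were thus higher and NCAM1 lower than the controls with the SP3 siRNA, and CHGA and NCAM1 were named after their values were seen.

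PKM was the one enzyme that rose with the SP3 siRNA. It was measured at 957 and 996 FPKM in the controls, 915 with the SP1 siRNA, 1287 with the SP3 siRNA and 1339 with both. The 2 libraries that received the SP3 siRNA were above the controls and the SP1 siRNA library was slightly below them. The SP3 siRNA level was 132% of the control mean (95% exact interval 131 to 133%), a log2 difference of 0.40 ± 0.05 (SE; limma adjusted p = 1.18e-05). PKM lies directly after the enolases in the pathway, and the ratio of PKM to ENO1 was 0.624 and 0.654 in the controls, 0.736 with the SP1 siRNA, 1.27 with the SP3 siRNA and 1.07 with both. The tables give 1 value per gene, so the M1 and M2 forms of PKM were not separated.

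**Figure D2:**
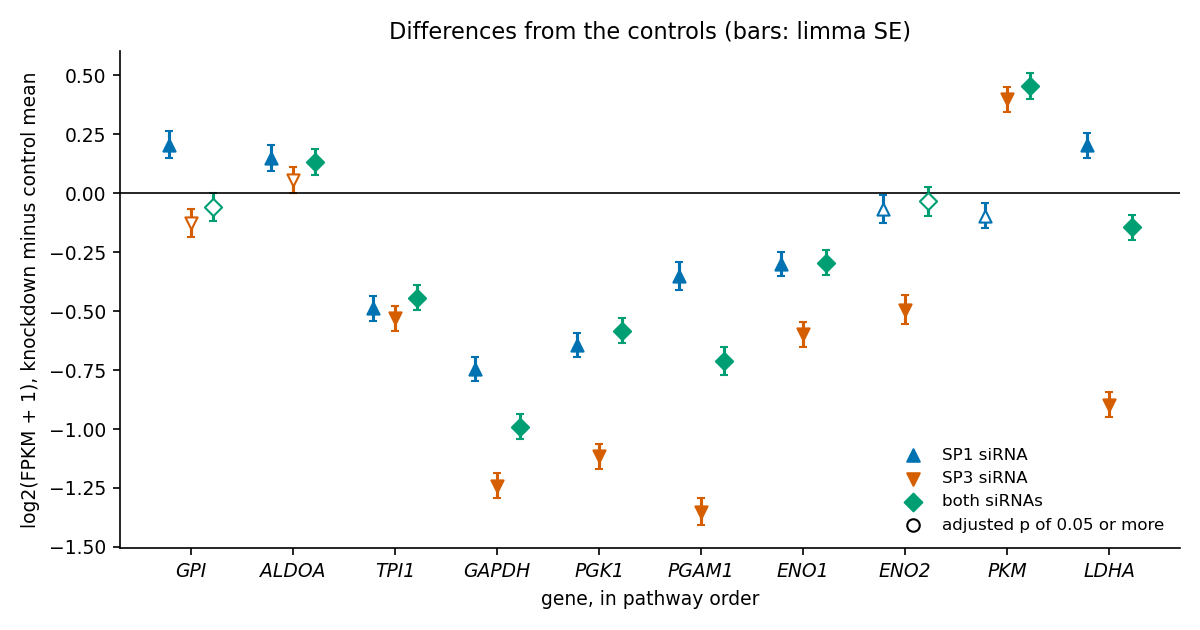
Log2 difference of each enzyme from the mean of the 2 controls for each siRNA treatment, in pathway order, with bars for the limma standard error and open symbols where the adjusted p was 0.05 or more. The SP3 siRNA points run from -1.35 (PGAM1) to 0.40 (PKM), and LDHA is the gene whose single siRNA points lie far apart on either side of 0.

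With both siRNAs, 6 of the 10 enzymes fell (TPI1, GAPDH, PGK1, PGAM1, ENO1 and LDHA), ALDOA and PKM rose, and GPI (-0.06) and ENO2 (-0.03) did not pass the test. Over all genes limma called 63.0%, with 31.9% higher and 31.1% lower, and the median log2 difference was -0.22 over the enzymes and 0.01 over all genes. GAPDH and PGAM1 were at least 1.5-fold below each control, 2 of the 10 against 13.4% of the genes whose mean reached 5 FPKM, and 0 were at least 1.5-fold above against 13.7%. At 2-fold there were 0 lower and 0 higher, against 5.3% and 4.38%. GAPDH stood at 50.4% of its control level (50.1 to 50.7%), and its log2 difference was -0.99 (limma adjusted p = 5.74e-10), PGAM1 differed by -0.71 (limma adjusted p = 5.87e-08) and PKM by 0.46 (limma adjusted p = 2.80e-06). LDHA (-0.14, limma adjusted p = 0.0286) and ALDOA (0.13, limma adjusted p = 0.0484) passed the test by small margins, and neither passed after median-ratio scaling.

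These calls rest on the spread between 2 controls, and the additive model, which takes its spread from the controls and from how far both siRNAs together depart from the sum of the single effects, kept few of them. It called 0 of the 10 enzymes for the SP1 siRNA in limma (lowest adjusted p 0.0923, with 1 gene at an unadjusted p under 0.05), against 7.67% of all genes, 3.68% higher and 3.99% lower. For the SP3 siRNA it called LDHA lower (-0.66, limma adjusted p = 0.0381) and PKM higher (0.46, limma adjusted p = 0.0287), against 15.4% of all genes, 6.69% higher and 8.7% lower. For both siRNAs it called only PKM (0.43, limma adjusted p = 0.0472), against 16.8%, 7.97% higher and 8.85% lower. Under it PGAM1 (0.07) and ENO2 (0.16) turned to the higher side for the SP1 siRNA. Its SP1 value averages the difference from the controls with that of both siRNAs from the SP3 siRNA. These 2 differences were -0.35 and 0.64 for PGAM1, and -0.07 and 0.46 for ENO2. In this model such a gap both shifts the value and widens the spread, so a lost call does not separate these. For the SP1 siRNA the SE of PGK1, with an interaction of 1.18, went from 0.053 to 0.265. That of ALDOA, with an interaction of -0.07, went from 0.055 to 0.072. Without a filter on low values, limma called only TPI1, GAPDH and PGK1 lower with the SP1 siRNA, PKM and ENO2 lost their calls with the SP3 siRNA, and TPI1, GAPDH, PGK1 and PGAM1 were the enzymes called with both.

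Compared directly, the SP3 siRNA library was lower than the SP1 siRNA library for 7 of the 10 enzymes and higher for PKM, while ALDOA and TPI1 did not pass the test. Over all genes tested limma called 62.7%, with 26.5% higher and 36.2% lower, and the median was -0.38 over the enzymes and -0.09 over all genes. LDHA (-1.10, limma adjusted p = 1.36e-09) and PGAM1 (-0.999, limma adjusted p = 9.16e-09) differed most, followed by GAPDH (-0.49, limma adjusted p = 4.70e-06) and PGK1 (-0.47, limma adjusted p = 8.43e-06). PKM was higher by 0.49 (limma adjusted p = 6.28e-06). After median-ratio scaling, which moved the median of all genes to 0.04 and the split from 3103 higher and 4250 lower to 4100 higher and 3249 lower, 4 of the 10 were still called lower, and GPI (-0.16), GAPDH (-0.33) and ENO1 (-0.13) were not. Each library is the only one of its kind, so this comparison has no replicate on either side.

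The library with both siRNAs did not carry the summed falls of the single ones. On the log2 scale limma called it higher than the sum of the single differences for 7 of the 10 enzymes, those from TPI1 to ENO2 and LDHA. It was called lower for 0. Over all genes this interaction was called for 39.5%, with 18.5% higher and 21.0% lower. PGK1 showed the widest gap, with a sum of -1.76 and a measured difference of -0.58, an interaction of 1.18 ± 0.08 (SE; limma adjusted p = 7.93e-08). GAPDH summed to -1.99 and was measured at -0.99 (limma adjusted p = 2.97e-07), and PGAM1 summed to -1.70 and was measured at -0.71 (limma adjusted p = 8.85e-07). PKM (0.15), ALDOA (-0.07) and GPI (-0.14), the enzymes that did not fall with the SP3 siRNA, did not pass the test.

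The library with both siRNAs was also set against each single siRNA. Against the SP3 siRNA library, 6 of the 10 were called higher with both (LDHA, PGAM1, PGK1, ENO2, ENO1 and GAPDH) and 0 lower, with 33.0% of all genes called, 17.9% higher and 15.1% lower. LDHA differed there by 0.75, PGAM1 by 0.64 and PGK1 by 0.53. Against the SP1 siRNA library, PKM was called higher (0.55) and 4 were called lower (PGAM1 -0.36, LDHA -0.35, GPI -0.26 and GAPDH -0.24), with 47.5% of all genes called, 21.0% higher and 26.4% lower. After median-ratio scaling only PGAM1 of these 4 was still called lower, GAPDH and ENO1 were no longer called higher than with the SP3 siRNA, and the split over all genes turned from 2467 higher and 3099 lower to 3192 and 2439 against the SP1 siRNA and from 2104 higher and 1767 lower to 1688 and 2340 against the SP3 siRNA. The level with both lay between those of the single siRNAs for 5 of the 10 enzymes, GPI, ALDOA, GAPDH, PGAM1 and LDHA. Without a filter on low values, none of the 10 passed the test for the interaction or against either single siRNA library. SP3 itself was at 50.7% of control with both siRNAs and at 41.3% with the SP3 siRNA alone, and the part of this in the result was not tested.

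**Figure D3:**
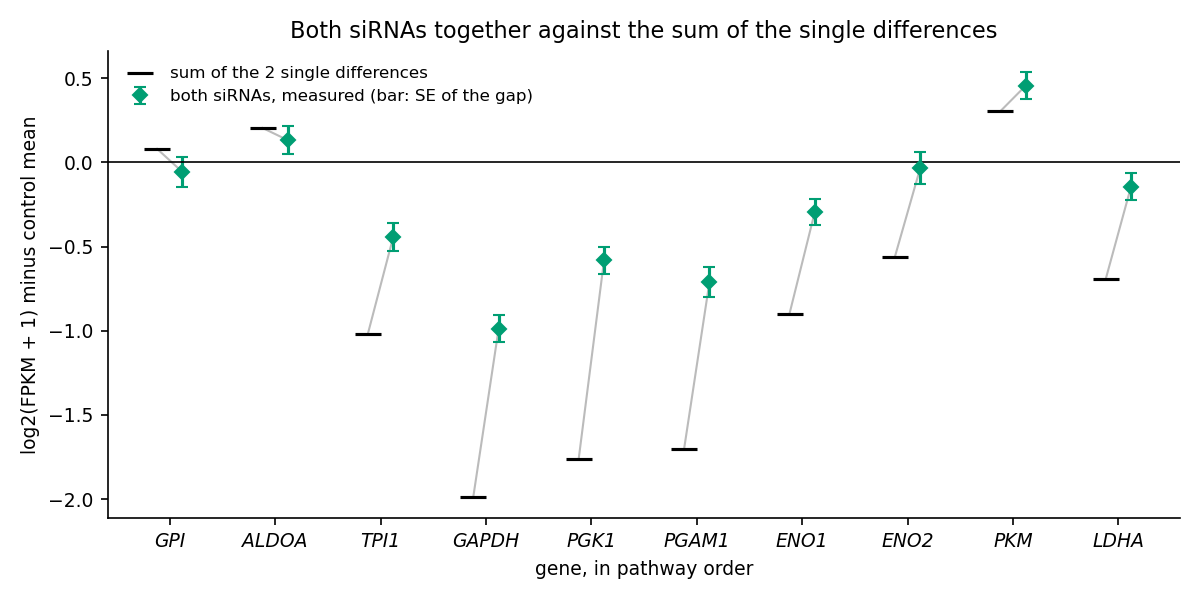
For each enzyme, the sum of the 2 single siRNA log2 differences (black dash) beside the difference measured with both siRNAs (green diamond, bar for the standard error of the gap), in pathway order. The diamonds of the 7 genes from TPI1 to ENO2 and LDHA lie above their dashes, by 1.18 for PGK1.

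Because GAPDH is a common denominator in transcript measurements, its level was set against 14 other genes used in the same way. Its ratio to ACTB, the beta-actin gene and the widest shift of the 14 with the SP3 siRNA, was 6.12 and 5.47 in the controls, 4.30 with the SP1 siRNA, 1.81 with the SP3 siRNA and 2.38 with both. Its ratio to RPLP0, a ribosomal protein gene, was 3.64 and 3.77 in the controls, 1.69 with the SP1 siRNA, 1.78 with the SP3 siRNA and 1.82 with both. Both ratios were below the controls in all 3 knockdown libraries. With the SP1 siRNA the ratio of GAPDH was below control for 13 of the 14 genes, by a median log2 of -0.74, the exception being YWHAZ (0.92), which itself went from 329 and 325 FPKM to 103. With the SP3 siRNA it was below for 14 of 14, from -1.68 (ACTB) to -0.12 (PGK1). With both it was below for 13 of 14, by a median of -0.95. The reference genes were not level themselves. Of the 15, with GAPDH and PGK1 included, 3 rose and 6 fell with the SP1 siRNA. With the SP3 siRNA 5 rose and 9 fell, and with both 5 rose and 4 fell. Over all genes tested 36.5%, 29.6% and 31.9% rose and 28.8%, 32.1% and 31.1% fell in the same comparisons. The additive model called 1 of the 15 in each comparison, against 7.67%, 15.4% and 16.8% of all genes.

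**Figure D4:**
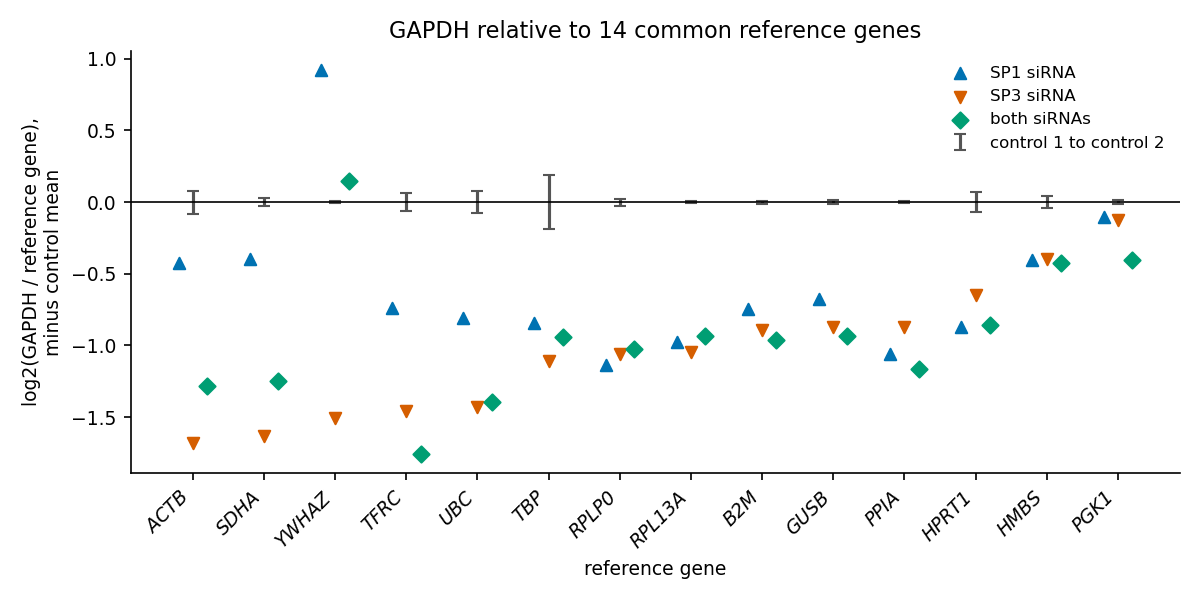
Log2 ratio of GAPDH to each of 14 reference genes, as the difference from the mean of the 2 controls, with grey bars joining the controls. The SP3 siRNA points lie below 0 for all 14 genes, while with the SP1 siRNA and with both the YWHAZ point lies above 0.

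The steps before GPI, which bring glucose in and phosphorylate it, moved in both directions. Of 14 listed genes for glucose transport, hexokinase and phosphofructokinase, 12 were tested, and 3 rose and 6 fell with the SP1 siRNA, 6 rose and 5 fell with the SP3 siRNA, and 4 rose and 5 fell with both. Their median log2 differences were -0.32, 0.10 and -0.08, against 0.06, -0.02 and 0.01 over all genes tested. Of all those genes 36.5%, 29.6% and 31.9% rose and 28.8%, 32.1% and 31.1% fell in the same comparisons. The additive model called 1, 0 and 1 of the 12, against 7.67%, 15.4% and 16.8% of all genes. SLC2A3, a high-affinity glucose transporter, was measured at 70.5 and 63.9 FPKM in the controls, 5.03 with the SP1 siRNA, 41.2 with the SP3 siRNA and 5.92 with both. It was thus lowest in the libraries that received the SP1 siRNA, at log2 differences of -3.50 and -3.30. PFKFB4, which makes and breaks the activator of phosphofructokinase, was measured at 54.2 and 52.6 FPKM in the controls, 23.3 with the SP1 siRNA, 8.70 with the SP3 siRNA and 15.1 with both, lowest with the SP3 siRNA as were GAPDH and PGK1. PFKL, the liver-type phosphofructokinase, was higher in all 3 knockdown libraries, at 20.7 and 20.5 FPKM in the controls and 44.9 with the SP1 siRNA, 29.99 with the SP3 siRNA and 33.0 with both.

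Of 14 genes for other forms of these enzymes, 5 reached the filter, and 1 rose and 1 fell with the SP1 siRNA, 0 rose and 3 fell with the SP3 siRNA, and 1 rose and 2 fell with both. For this list and the 2 below, the shares over all genes tested were 36.5%, 29.6% and 31.9% higher and 28.8%, 32.1% and 31.1% lower. ALDOC, an aldolase typical of brain, was measured at 427 and 423 FPKM in the controls, 285 with the SP1 siRNA, 187 with the SP3 siRNA and 233 with both, below the controls throughout, unlike ALDOA. ENO3, the muscle enolase, was measured at 1.89 and 1.82 FPKM in the controls, 6.61 with the SP1 siRNA, 1.73 with the SP3 siRNA and 3.69 with both, highest with the SP1 siRNA (log2 difference 1.41, limma adjusted p = 6.57e-08). For the exit of the pathway, 16 genes of lactate transport and the pyruvate dehydrogenase complex were tested: 0 rose and 10 fell with the SP1 siRNA, 3 rose and 9 fell with the SP3 siRNA, and 1 rose and 9 fell with both. Their medians were -0.25, -0.40 and -0.26, against 0.06, -0.02 and 0.01 over all genes tested. The additive model called 1, 4 and 1 of the 16 exit genes and 1, 0 and 0 of the 5 other enzyme forms. Of all genes it called 7.67%, 15.4% and 16.8%. SLC16A3, which exports lactate, was measured at 334 and 333 FPKM in the controls, 258 with the SP1 siRNA, 199 with the SP3 siRNA and 262 with both, and so was below the controls throughout. Of 6 gluconeogenesis genes, 3 were tested, and 2 rose and 1 fell with the SP1 siRNA, 1 rose with the SP3 siRNA and 2 rose with both, and the additive model called 0 of the 3 in each comparison.

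Of 13 regulators of the pathway, 4 rose and 5 fell with the SP1 siRNA, 1 rose and 7 fell with the SP3 siRNA, and 3 rose and 8 fell with both, with medians of -0.14, -0.51 and -0.30. Among all genes tested, 36.5%, 29.6% and 31.9% rose and 28.8%, 32.1% and 31.1% fell, with medians of 0.06, -0.02 and 0.01. HIF1A, the oxygen-regulated activator of many glycolytic genes, was measured at 31.1 and 30.9 FPKM in the controls, 23.8 with the SP1 siRNA, 13.1 with the SP3 siRNA and 16.0 with both. It was below the controls throughout and lowest with the SP3 siRNA, the same order as GAPDH. MYC, which activates LDHA among other genes, was measured at 91.9 and 85.8 FPKM in the controls, 136 with the SP1 siRNA, 44.1 with the SP3 siRNA and 47.8 with both. It was above the controls with the SP1 siRNA (0.61, limma adjusted p = 1.02e-06) and below them with the SP3 siRNA (-0.99, limma adjusted p = 5.72e-09), as LDHA was. In the additive model the rises of MYC (0.39, limma adjusted p = 0.124) and LDHA (0.44) were lost. The fall of MYC with the SP3 siRNA stayed called (-1.20, limma adjusted p = 0.018). That model called 1, 5 and 5 of the 13 regulators for the SP1, SP3 and double knockdown, against 7.67%, 15.4% and 16.8% of all genes. For HIF1A it gave -0.095 (limma adjusted p = 0.708) with the SP1 siRNA. The part of HIF1A and MYC in the levels of the enzymes was not tested.

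Genes with the pattern most like GAPDH over the 3 differences from the controls were DBF4, PTPRU, IRF1, ALDOC and SLC25A11, at Euclidean distances of 0.197 to 0.224 in log2 units among 7028 candidates whose mean reached 5 FPKM. PTPRU, for example, was measured at 41.5 and 43.6 FPKM in the controls, 23.3 with the SP1 siRNA, 19.8 with the SP3 siRNA and 21.2 with both. The 5 nearest to ENO2 were CDKN2A, TSPYL2, HMGB1, XRCC6 and TBCB, at distances of 0.0620 to 0.108. XRCC6 was measured at 248 and 252 FPKM in the controls, 239 with the SP1 siRNA, 189 with the SP3 siRNA and 240.3 with both, lower with the SP3 siRNA alone. The likeness covers 3 differences that share the same controls and describes these libraries only.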

How the data were processed

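RNA sequencing of HCT116 cells gave 5 libraries: 2 controls, and 1 for each of SP1, SP3 and the double knockdown. The authors deposited 1 table per library with gene symbols and FPKM values. The tools named, per the submitters' processing notes, are HTSeq 0.9.1, Cufflinks 2.2.1, HISAT2 2.0.5 and Trimmomatic 0.36, without their roles. The sources used here do not give the genome build, the annotation or the handling of strand. The enzymes, the gene lists and the tests were chosen with earlier results of these data known.

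Depth was recovered from the steps of low FPKM values, which gave whole reads in all libraries for 17122 of 17125 genes above 0, within 0.02 reads and taking GENCODE 29 lengths for the absolute scale. Recovered reads are lower limits. They served for depth and for 95% exact intervals that cover counting error only.

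FPKM values are not counts, so the test was empirical Bayes moderation with a mean trend in limma 3.58.1 (R 4.3.3) on log2(FPKM + 1), and differences on that scale understate changes of low genes. The 11728 genes that reached 1 FPKM in any library entered 7 comparisons, with Benjamini-Hochberg adjustment over all of them and a threshold of 0.05. The model had 1 mean per group, 1 residual degree of freedom from the controls and 13.98 prior ones. The spread of the knockdown libraries was taken to equal that of the controls. The labels do not state separate cultures for the controls. A p-value therefore sets a difference against the spread between the 2 controls, moderated over all genes, and that spread may be technical. As a count without a test, genes whose mean reached 5 FPKM and that lay at least 1.5-fold or 2-fold from each control on the same side were counted. The script was tested on simulated data. Named genes were the 10 enzymes, SP1 and SP3, the 5 genes nearest to GAPDH and to ENO2 by pattern, and up to 4 genes per list and comparison by smallest p. Other genes with values, such as ACTB and CHGA, were chosen after their values were seen. Alternatives were a pseudocount of 0.1, a mean of at least 5 FPKM, no filter, median-ratio scaling, TPM, no trend, an additive model with 2 residual degrees of freedom, leaving out each control, and a longer GC box. Principal transcript lengths for the order of levels, and the windows of tested genes for the GC box, were added after seeing the data.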

Additional observations from a re-analysis of the deposited data

Results flagged for a closer look

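For 7 of the 10 enzymes the effect of one siRNA differed with the other siRNA present or absent, as an interaction in limma on the log2(FPKM + 1) scale. The library with both siRNAs was higher than the sum of the single differences by 1.18 for PGK1, 0.996 for GAPDH, 0.99 for PGAM1, 0.60 for ENO1, 0.57 for TPI1, 0.55 for LDHA and 0.53 for ENO2. Across all genes tested the interaction was called for 39.5%, with 18.5% higher and 21.0% lower. Without a filter on low values it was called for 0 genes. Each knockdown was 1 library, so none of the 7 interactions has a replicate check.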

How the results depend on the processing

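The direction of the calls for the enzymes against the controls was steadier than their number. Leaving out each control moved no enzyme by more than 0.0495 in log2 and changed 1 sign among 40 values. With 2 controls, the size of such a move is set by the difference between them, so it is no check on the knockdown libraries. Leaving out a control left 2 enzymes at least 1.5-fold lower with the SP1 siRNA, 5 with the SP3 siRNA and 2 to 3 with both. With the additive model limma called 900, 1805 and 1973 genes for SP1, SP3 and double knockdown, against 7666, 7225 and 7387, and the enzymes called were 0 higher and 0 lower, 1 higher and 1 lower, and 1 higher and 0 lower. Without a filter on low values it called 4180, 2106 and 3157 genes, and 2636 between the single siRNAs. The same setting gave 0 genes for both siRNAs against the SP1 siRNA, against the SP3 siRNA and for the interaction, where 6063, 4443 and 5376 had an unadjusted p under 0.05, and its prior degrees of freedom were 1.03. Without the filter the enzymes called higher were 0 for SP1, 0 for SP3, 0 for double knockdown and 0 in each comparison between knockdowns or for the interaction, and those called lower were 3 for the SP1 siRNA, 0 for both siRNAs against the SP1 siRNA and 3 for the SP3 against the SP1 siRNA. With a mean of at least 5 FPKM, 5109 genes were called for the SP1 siRNA, where fewer genes were tested. With median-ratio scaling or without the trend, 0 enzymes were called higher for the SP1 siRNA, and for both siRNAs against the SP1 siRNA 1 and 2 were called lower. The SP3 against the SP1 siRNA had 4 lower with median-ratio scaling. For both siRNAs 1 enzyme was called higher with a pseudocount of 0.1, with median-ratio scaling, as TPM, without the trend and in the additive model, the lost one being ALDOA. As TPM 1 enzyme was at least 2-fold lower with both siRNAs, and the longer GC box was found in 1 enzyme in place of 9. For the SP1 siRNA, values turned sign in the additive model to 0.073 (PGAM1), 0.16 (ENO2), 0.19 (CDKN2A), 0.12 (HMGB1), 0.10 (LDHB), 0.13 (PDK3), -0.064 (PFKFB2), 0.18 (SYP), 0.23 (TFRC), 0.10 (TSPYL2) and 0.11 (XRCC6), and with median-ratio scaling to -0.10 (TBCB). For the SP3 siRNA they turned to -0.010 (BPGM) and -0.017 (PC) as TPM, and for G6PC3 to 0.014 with median-ratio scaling and 0.0057 in the additive model. For both siRNAs they turned to -0.011 (CDKN2A) and -0.0082 (RPLP0) as TPM and to -0.056 (CDKN2A) in the additive model. Between knockdowns, both siRNAs against the SP1 siRNA turned to 0.083 (ALDOA) with median-ratio scaling and to -0.035 (ENO1) and -0.0075 (ENO2) as TPM. Both against the SP3 siRNA turned to -0.00041 (GPI) and -0.013 (PKM), and the SP3 against the SP1 siRNA to 0.076 (ALDOA) and 0.13 (TPI1), with median-ratio scaling. Apart from the smaller number of genes tested, the cause was not tested. No paired analysis was possible because the knockdown groups have 1 library each and carry no replicate number.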
